A study of Mus musculus with 2 samples.

Results

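Open chromatin at 8 genes of the Wnt/beta-catenin pathway was compared between kidney cells with and without Brg1. The genes were the 4 TCF/LEF transcription factor genes Lef1, Tcf7, Tcf7l1 and Tcf7l2, the beta-catenin gene Ctnnb1, the feedback inhibitor gene Axin2, and Sfrp1 and Sfrp2, which encode secreted Wnt antagonists. They were chosen by name as pathway members. A peak was assigned to a gene when its summit lay inside the gene, or within 100 kb of the gene's end with that end the nearest among 21896 protein-coding genes. By this rule 140 of 77529 control peaks and 109 of 61210 peaks of the Brg1-deficient library belonged to the 8 genes. Of these, 3 control and 2 cKO (Brg1 conditional knockout) peaks lay inside a member but nearer to the end of another gene, and the most distant peaks lay 96188 bp (cKO) and 96027 bp (control) from Tcf7l2. No peak belonged to more than 1 of the 8 genes, and wherever a peak overlapped the other library, its counterpart was assigned to the same gene.

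The data are ATAC-seq, in which a transposase inserts adapters into accessible DNA, on tdTomato-positive cells of the Wnt4 lineage purified by FACS from mouse kidneys at E18.5. One library came from WT control kidneys and the other from kidneys of genotype Brg1cKO/cKO (cKO), with a conditional loss of Brg1, the motor subunit that lets BAF complexes move nucleosomes. Both started from 50000 cells, and each genotype had 1 library (n = 1), so no test between genotypes was possible and every difference below lacks a replicate check. The sources used here do not name the driver of the Cre or the number of kidneys, and for the control the cell type is labelled only as control. No read counts come with the peaks, so each library's depth is unknown, and DNA outside the called peaks may still be accessible below the calling threshold.

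In the Wnt pathway a ligand stops the destruction complex from degrading beta-catenin, which then enters the nucleus and binds TCF/LEF factors on DNA. Without beta-catenin these factors can recruit Groucho/TLE corepressors to the same genes. In the embryonic kidney, beta-catenin acts in nephron progenitors, and Lef1 and Tcf7 are known to come up as these cells commit to form nephrons, while Tcf7l1 and Tcf7l2 are already present in progenitors.

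Markers of the cells were checked first. All 7 progenitor and early nephron markers (Six2, Cited1, Pax2, Pax8, Lhx1, Wt1 and Wnt4) and all 3 podocyte markers had a peak within 1000 bp of a gene end in both libraries. Markers of other cells were open too: 5 of 5 for interstitium and stroma, 4 of 4 for ureteric bud and collecting duct, 4 of 4 for endothelium and 2 of 4 for erythroid cells in both libraries, and for immune cells 2 of 4 in the control (Csf1r and Cd68) and 1 of 4 in the cKO (Cd68). Ptprc and Laptm5 had none at their ends, and the erythroid gene Alas2 had no assigned peak at all. Cd68 had no assigned peak in either library, so the peak near its end was assigned to another gene. The number of assigned peaks was lower in the cKO for each of these lists (111 and 81 for progenitor and early nephron, 37 and 20 for podocyte, 56 and 52 for interstitium and stroma, 49 and 38 for endothelium). The whole lists had a ratio of cKO to control peaks of 0.790. For these 4 it was 0.730, 0.541, 0.929 and 0.776. It was 0.724 for ureteric bud and collecting duct (29 and 21 peaks), 0.722 for immune cells (18 and 13) and 0.556 for erythroid cells (9 and 5). The part of the cell composition in the values below was not tested.

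Sequences at annotated starts are shown here, most of them under these peaks. The promoter table matched 7 of the 8 genes, with 13 starts, and 12 of the 13 lay inside a peak in each library. The same 12 starts were covered in both; over the 32851 starts of the table, 51.4% lay in a control peak, and 2.02% lay in a control peak but in no cKO peak. Each window runs from 250 bases before to 50 bases after the start (RefSeq, GRCm38.p6), and capitals mark CTTTG or its reverse complement CAAAG, the core of the TCF/LEF motif, on either strand. The first Lef1 window (chr3:131110047-131110346, plus strand) lies in the widest peak of the gene, and that of a downstream start (chr3:131112541-131112840, plus strand) near the edge where that peak ends in the cKO. The window of the internal start (chr3:131156044-131156343, plus strand) lies between control peaks without a cKO counterpart, and no peak of either library covers any of it. The Tcf7l2 window (chr19:55895071-55895370, plus strand) is an internal start under a peak of both libraries, and the Axin2 window (chr11:108920099-108920398, plus strand) is that of the pathway's feedback target.
Lef1 first start: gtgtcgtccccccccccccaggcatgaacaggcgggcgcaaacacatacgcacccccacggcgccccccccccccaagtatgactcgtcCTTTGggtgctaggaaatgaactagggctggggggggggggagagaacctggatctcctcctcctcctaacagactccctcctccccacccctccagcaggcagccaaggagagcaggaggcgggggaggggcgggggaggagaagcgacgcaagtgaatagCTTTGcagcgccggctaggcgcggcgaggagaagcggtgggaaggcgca
Lef1 downstream start: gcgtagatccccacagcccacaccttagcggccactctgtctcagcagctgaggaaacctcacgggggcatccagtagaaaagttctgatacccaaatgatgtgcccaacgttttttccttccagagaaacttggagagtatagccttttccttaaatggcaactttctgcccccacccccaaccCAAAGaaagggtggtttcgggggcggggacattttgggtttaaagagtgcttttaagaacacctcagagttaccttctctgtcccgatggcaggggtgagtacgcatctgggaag
Lef1 internal start: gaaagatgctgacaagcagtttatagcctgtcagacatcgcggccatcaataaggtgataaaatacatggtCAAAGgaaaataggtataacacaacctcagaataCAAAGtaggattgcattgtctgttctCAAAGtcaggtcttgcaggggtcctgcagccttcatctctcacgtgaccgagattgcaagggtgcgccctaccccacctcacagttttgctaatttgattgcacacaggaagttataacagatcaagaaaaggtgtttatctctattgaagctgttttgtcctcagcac
Tcf7l2 internal start: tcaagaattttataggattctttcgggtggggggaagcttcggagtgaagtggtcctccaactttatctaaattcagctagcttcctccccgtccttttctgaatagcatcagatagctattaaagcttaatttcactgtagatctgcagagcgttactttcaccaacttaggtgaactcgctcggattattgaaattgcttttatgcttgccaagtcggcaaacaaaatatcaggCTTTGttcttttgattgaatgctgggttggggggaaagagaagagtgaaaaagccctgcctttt
Axin2 start: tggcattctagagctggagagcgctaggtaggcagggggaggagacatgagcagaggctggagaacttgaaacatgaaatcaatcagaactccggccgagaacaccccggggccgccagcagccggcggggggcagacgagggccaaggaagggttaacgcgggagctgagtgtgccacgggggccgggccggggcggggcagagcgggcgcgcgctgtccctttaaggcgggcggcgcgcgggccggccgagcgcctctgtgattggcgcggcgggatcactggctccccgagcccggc
The window of the second Lef1 start, close behind the first, overlaps that of the first and is not shown. The first Lef1 window held 2 matches to the core, that of the downstream start 1, that of the internal start 3, the Tcf7l2 window 1 and the Axin2 window none. Of the 13 windows, 7 held a match, against 53.9% of all 32851 windows. The longer form CTTTGAT or CTTTGAA, which contains the core, was in none of the 13 windows and in 8.65% of all windows, on either strand. These counts describe the letters of the windows and say nothing of binding.

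Taken over the 8 genes, open chromatin was called less in the cKO to about the degree seen in the whole list. Of the 140 control peaks, 103 overlapped a cKO peak by at least 1 bp (73.6%, exact Clopper-Pearson 95% interval 65.5 to 80.7%), and 37 did not. Among all control peaks 25.9% had no cKO counterpart, so the 8 genes together were near the background. Under 1 of 9 alternative settings, the more significant 50% of each list, 37 of 61 were found (60.7%, 47.3 to 72.9%). That interval lies wholly below the 75.4% of all control peaks, and the ratio of bases covered was 0.688, against 0.842. There a control peak whose cKO counterpart ranks in the weaker 50% of the cKO list counts as not found. Against the full cKO list, the 3 strongest of 5 strength classes had 28 of 32, 29 of 30 and 16 of 16 found. Of the 109 cKO peaks, 106 overlapped a control peak (97.2%, 92.2 to 99.4%), and 3 did not, where 5.92% of all cKO peaks had no control counterpart. Peaks of the 8 genes covered 161 kb in the control and 129 kb in the cKO, a ratio of 0.802, against 0.844 for the whole lists. Their mean width was 1148 bp in the control and 1182 bp in the cKO, against 1091 and 1166 bp over all peaks. Intervals cover counting error only.

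**Figure D1:**
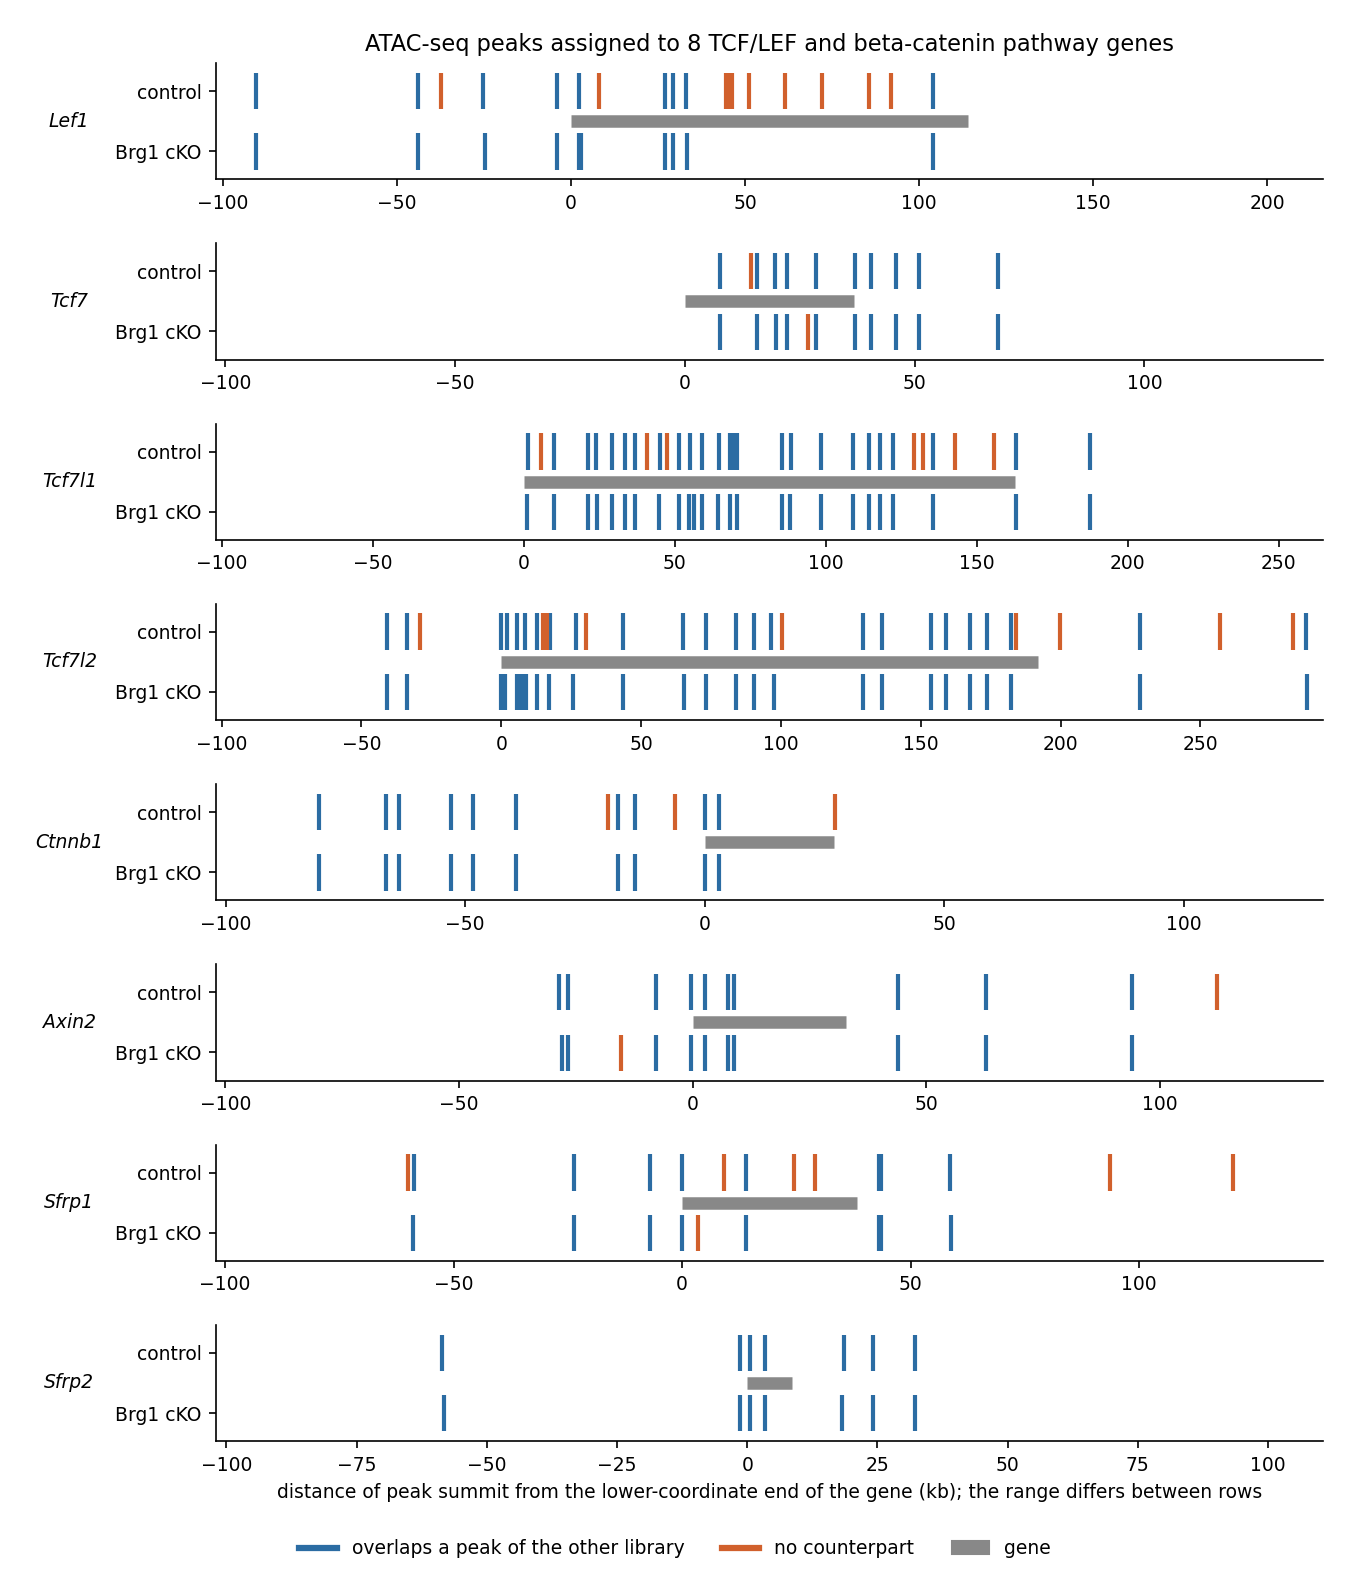
Summits of the peaks assigned to each of the 8 genes, in kb from the lower-coordinate end of the gene (grey bar), with control peaks above and cKO peaks below the gene. Blue ticks overlap a peak of the other library and orange ticks have no counterpart; of the 37 orange control ticks 10 lie at Lef1, 9 at Tcf7l2, 7 at Tcf7l1 and 6 at Sfrp1.

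Stronger peaks were found more often, with differences by position too. At gene ends, within 1000 bp, 7 of 8 control peaks of the 8 genes were found, where 5.38% of all control peaks so placed had no counterpart. The unmatched one, 580 bp wide and in the weakest of the classes below, lay 0.117 kb beyond the downstream end of Ctnnb1, not at a start. The peaks over the starts of Lef1 and Axin2, with summits 2.15 and 2.58 kb into the gene, counted as inside and were found. Inside genes 58 of 83 were found (69.9%), against a background of 32.8% without one, and outside them 38 of 49 (77.6%), against 27.1%. When all control peaks were divided into 5 equal classes by the peak caller's p, the 8 genes had 11 of 27 peaks of the weakest class found, 19 of 35 of the next, then 28 of 32, 29 of 30 and 16 of 16. Over all control peaks the shares without a counterpart were 61.5%, 43.7%, 18.9%, 5.17% and 0.0645% from the weakest to the strongest class. If each of the 140 peaks had been found as often as all control peaks of its class, 101 would have been found, beside the 103 observed. All 3 unmatched cKO peaks were of the weakest cKO class, in which 21.2% of all cKO peaks had no control counterpart. Unmatched control peaks of the 8 genes had a median width of 483 bp, and matched ones of 1100 bp; over all control peaks these medians were 580 and 1009 bp.

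**Figure D2:**
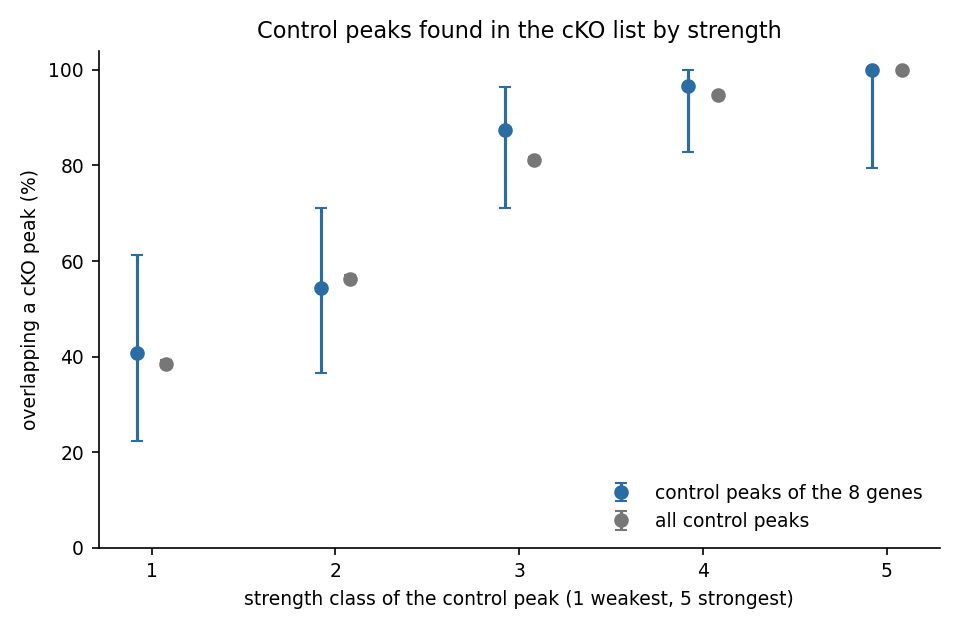
Percentage of control peaks that overlap a cKO peak, in 5 equal classes of peak strength, for the 140 peaks of the 8 genes (blue) and all 77529 control peaks (grey), with exact 95% intervals. In each class the interval of the 8 genes spans the value of all peaks, from 40.7% in the weakest class to 100% in the strongest.

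The share of control peaks found ran from 47.4 to 100% over the 8 genes. In order of the share found, they were Lef1 with 9 of 19 (47.4%, 24.4 to 71.1%), Sfrp1 with 8 of 14 (57.1%, 28.9 to 82.3%), Tcf7l2 with 24 of 33 (72.7%, 54.5 to 86.7%), Ctnnb1 with 10 of 13 (76.9%, 46.2 to 94.96%) and Tcf7l1 with 25 of 32 (78.1%, 60.0 to 90.7%). Tcf7 and Axin2 each had 10 of 11 (90.9%, 58.7 to 99.8%), and Sfrp2 had all 7 (59.0 to 100%). The intervals of neighbours in this order overlap, and only the 9 of 19 of Lef1 has an interval that lies wholly below the 74.1% of all control peaks. That interval reached the value of all control peaks under 3 of the 9 alternative settings: with lists of equal length (35.1 to 87.2%, against 83.5%), in the more significant 50% of each list (9.90 to 81.6%, against 75.4%) and with peaks closer than 500 bp joined (27.8 to 77.0%, against 74.8%). More unmatched control than unmatched cKO peaks were seen at 5 of the 8 genes, and Tcf7, Axin2 and Sfrp2 had equal numbers. The first state was found at 43.5% of all protein-coding genes with a peak, but many of those have few peaks and so less room for an unmatched one. None of the 8 had more unmatched cKO than control peaks, as 5.05% of all genes with a peak did. Fewer bases were covered in the cKO at 6 of the 8 genes, as at 71.9% of all genes with a control peak, and more were covered at Axin2 and Sfrp2, as at 27.8% of genes with a control peak.

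**Figure D3:**
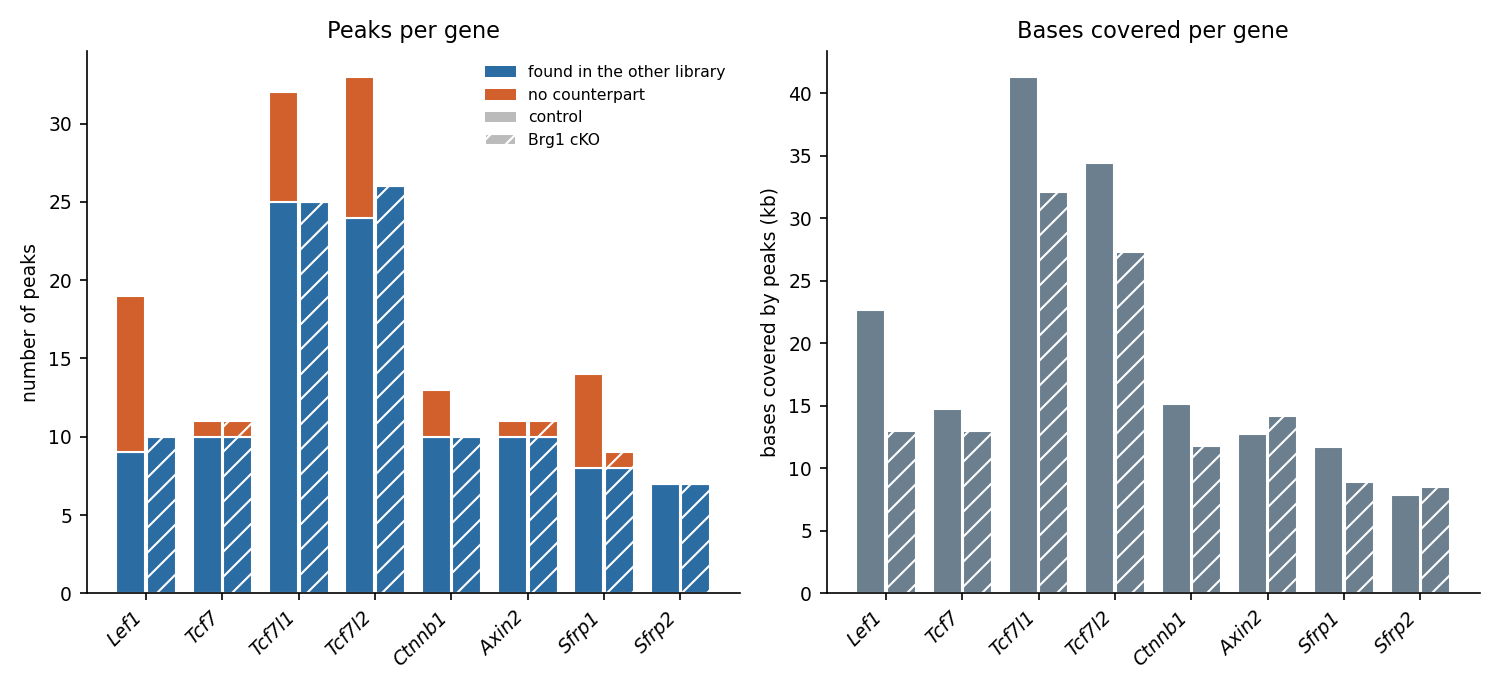
Peaks per gene (left, blue for peaks that overlap the other library, orange for those without a counterpart) and kb covered by peaks per gene (right), with the control as plain and the cKO as hatched bars, 1 library each. Lef1 shows the largest difference in bases covered, 22.7 against 13.0 kb, and at Axin2 and Sfrp2 the cKO bar is the taller.

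The TCF/LEF factor genes held 95 of the 140 control peaks, and 68 of them were found (71.6%, 61.4 to 80.4%). Lef1 encodes the factor that mainly activates transcription with beta-catenin and spans 114 kb on chromosome 3 (131110297 to 131224357, plus strand). It had 19 control peaks covering 22.7 kb and 10 cKO peaks covering 13.0 kb, a ratio of 0.574. Of the 1863 genes that had 10 or more control peaks, 7.03% had a share found at or below that of Lef1, and 10.1% a ratio of bases at or below its ratio. With the strength of its peaks, 13.4 of the 19 would have been found at the rate of all control peaks, against 9 observed; that number is 70.5% of the 19 and lies inside the interval of Lef1.

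Of the 10 unmatched control peaks of Lef1, 8 lay together in the inner part of the gene, and the other 2 were single peaks 37.4 kb below it (417 bp) and 7.93 kb into it (408 bp). The region around its first starts was called in both libraries: the control had a peak of 4511 bp (chr3:131109104-131113614), the widest of the gene, and the cKO had 3752 bp and 456 bp peaks in its place, with the summit of the wider one at the same base. A second broad peak 4.12 kb below the gene measured 2961 bp in the control and 3086 bp in the cKO. Peaks 25.3, 43.9 and 90.6 kb below the gene were also found, as were 3 peaks between 27.0 and 33.0 kb into it. Beyond these, the 8 control peaks in a row, with summits from 44.4 to 92.0 kb into the gene (chr3:131154068-131202775), had no cKO counterpart. They were 394 to 1925 bp wide and covered 6627 bp in all.

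The cKO list had no peak over 70.2 kb around this run, from 131143821 to 131213972, a stretch that also takes in part of the matched control peaks on either side, while the longest stretch between control peaks inside Lef1 was 18.8 kb. At its far side, 104 kb into the gene, a control peak of 2570 bp met a cKO peak of 1199 bp whose summit was 2 bp away. In the whole control list, 13 runs of 8 or more neighbouring peaks without a counterpart were found, holding 0.144% of all control peaks, and the run in Lef1 was one of 9 of exactly 8. These counts depend on how the caller split the peaks. Neighbours at the start of the Lef1 run lie less than 500 bp apart, and with such peaks joined Lef1 had 17 control peaks, 9 of them found. Runs were not counted again under that setting. The first peak of the run (chr3:131154068-131155212, 1145 bp, -log10 p 7.62 in the control list) was the most significant unmatched control peak of the 8 genes. It was the only peak of their 30 in the second strongest class without a counterpart, where 5.17% of all control peaks had none. The remaining 7 had a -log10 p of 4.12 to 5.54, and 2 of them were in the weakest class, 3 in the next and 2 in the middle class. The internal start shown above lay in no peak of either list, 172 bp from the nearest control peak and 12474 bp from the nearest cKO peak.

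**Figure D4:**
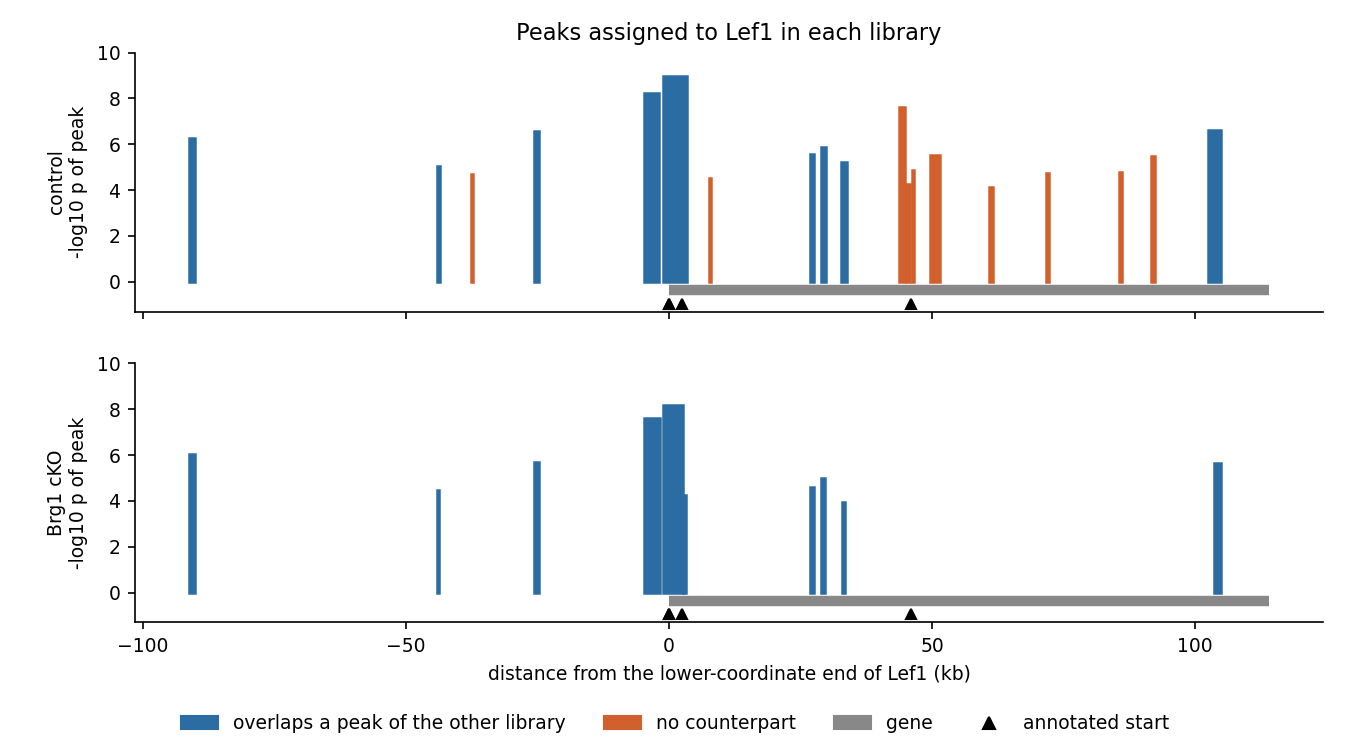
Peaks assigned to Lef1 drawn to scale along the gene, with the x axis in kb from its lower-coordinate end, bar height the peak's -log10 p within its own list (not comparable between lists) and triangles the annotated starts. The 8 orange control peaks between 44.4 and 92.0 kb stand over a part of the gene where the cKO panel is empty.

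Tcf7, which encodes the factor TCF1 and spans 36.9 kb on chromosome 11 (52246527 to 52283383, minus strand), had 11 peaks in each library, covering 14.7 kb in the control and 13.0 kb in the cKO. Its widest peak covers both annotated starts, with 3170 bp in the control (chr11:52281625-52284794) and 3112 bp in the cKO. All 4 peaks outside the gene were found. The unmatched control peak (chr11:52260008-52261225) and the unmatched cKO peak (chr11:52272184-52273684, 1501 bp) both lay inside the gene, and both were of the weakest class of their list. Of its 10 pairs of peaks that overlapped 1 to 1, 8 were narrower in the cKO, with a median width ratio of 0.864. Among all such pairs 58.1% were narrower.

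Tcf7l1, encoding TCF3, a factor known mainly as a repressor, spans 163 kb on chromosome 6 (72626371 to 72789045, minus strand) and had 32 control peaks and 25 cKO peaks, 30 of the control peaks lying inside it. Bases covered were 41.3 kb in the control and 32.1 kb in the cKO, a ratio of 0.777. The peak at its start was 3288 bp wide in the control (chr6:72787012-72790299) and 3257 bp in the cKO. Its 7 unmatched control peaks were spread from 5.52 to 156 kb above the lower end of the gene, and 4 of them lay in 2 pairs of neighbours near the start side. The most significant of them was chr6:72673369-72674405, with a -log10 p of 6.18. Its 25 cKO peaks were all found in the control. Of 22 pairs, 20 were narrower in the cKO (median ratio 0.945), whereas over all 54820 pairs 58.1% were narrower.

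Tcf7l2, encoding TCF4 and spanning 192 kb on chromosome 19 (55741797 to 55933659, plus strand), had 33 control peaks covering 34.5 kb and 26 cKO peaks covering 27.3 kb. Peaks at its first start measured 1631 bp in the control and 1632 bp in the cKO, and the widest, just behind it, 3239 bp (chr19:55742316-55745554) and 3233 bp. The internal start shown above was covered by peaks of 1174 and 1113 bp. Its 9 unmatched control peaks were 5 inside the gene and 4 outside it, and none was in the 2 strongest classes. The most significant was chr19:55841427-55842587, with a -log10 p of 5.86. A control peak of 2555 bp, 8.54 kb into the gene, was called as 3 cKO peaks of 580, 325 and 1123 bp. All 26 cKO peaks overlapped a control peak.

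Ctnnb1, the beta-catenin gene, spans 27.1 kb on chromosome 9 (120933400 to 120960507, plus strand), and 10 of its 13 control peaks lay below it, 6.27 to 80.6 kb from its start. It had 10 cKO peaks, all found in the control, and its coverage was 15.2 kb in the control and 11.8 kb in the cKO. The peak at its start, the widest of the control, was 3449 bp wide (chr9:120932822-120936270). In the cKO it was called as peaks of 1982 and 1999 bp, the second of which (chr9:120934929-120936927) also joined the next control peak of 590 bp and was the widest of the cKO. The summit at the start was at the same base in both libraries. Each of its 8 pairs overlapping 1 to 1 was narrower in the cKO, with ratios from 0.677 to 0.995, where 58.1% of all such pairs were narrower. Its 3 unmatched control peaks were of the 2 weakest classes, the most significant being chr9:120927032-120927475 with a -log10 p of 4.81.

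Axin2, whose product promotes beta-catenin degradation and whose transcription the pathway itself induces, spans 33.0 kb on chromosome 11 (108917828 to 108950783, plus strand). It had 11 peaks in each library, and its coverage was larger in the cKO, 14.2 kb against 12.8 kb, a ratio of 1.11. The control peak at its annotated start measured 4276 bp (chr11:108919585-108923860). The cKO had a peak of 2988 bp there and next to it a peak of 3019 bp (chr11:108922972-108925990) that overlapped both the end of this control peak and the next control peak of 933 bp. A peak at the lower end of the gene was 1019 bp wide in the control and 1703 bp in the cKO, with summits at the same base. The unmatched control peak (chr11:109029971-109030420) lay 79.3 kb beyond the gene and the unmatched cKO peak (chr11:108902380-108902904, 525 bp) 15.3 kb below it, both of the weakest class. At the rate of all control peaks of equal strength 7.55 of its 11 would have been found, against 10.

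The secreted antagonists, which bind Wnt ligands outside the cell, had 15 of 21 control peaks found (71.4%, 47.8 to 88.7%), and the members of this pair differed. Sfrp1 spans 38.3 kb on chromosome 8 (23411383 to 23449632) and had 14 control peaks covering 11.7 kb and 9 cKO peaks covering 8.87 kb, a ratio of 0.758. The peak at its lower end was 3049 bp wide in the control (chr8:23409699-23412747) and 2886 bp in the cKO. Inside the gene and more than 1000 bp from its ends, 1 of 4 control peaks was found, a share for which the interval runs from 0.631 to 80.6%, where 32.8% of all control peaks so placed had no counterpart. Of its 6 unmatched control peaks the most significant was chr8:23440250-23440657, with a -log10 p of 5.27. An unmatched cKO peak of 496 bp (chr8:23414624-23415119) lay 3.52 kb into the gene. Its peaks were weak, 10 of 14 control peaks being in the 2 weakest classes, and 8.71 of 14 would have been found at the rate of all control peaks of equal strength, against 8.

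Sfrp2, spanning 8.56 kb on chromosome 3 (83765750 to 83774314, plus strand), had 7 peaks in each library, and each of the 7 overlapped 1 to 1. All control peaks were found at 53.0% of protein-coding genes with a control peak, many of them with few peaks. Of its control peaks 6 were in the 2 strongest classes, and 6.36 of 7 would have been found at the rate for their strength. Its peaks covered 7.86 kb in the control and 8.54 kb in the cKO. The peak over its start measured 1909 bp (chr3:83765537-83767445) in the control and 2290 bp in the cKO, the largest gain in width in bp among its pairs, and 5 of the 7 were wider in the cKO.

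Many of the peaks that were found were somewhat narrower in the cKO. Over the 8 genes, 94 control peaks overlapped exactly 1 cKO peak that overlapped no other. Of these pairs 68 were narrower in the cKO (72.3%), 25 wider and 1 equal, with a median width ratio of 0.952. Over all 54820 such pairs 58.1% were narrower, and the median was 0.982. Summits lay within 50 bp of each other in 67 of the 94 pairs (71.3%), against 77.1% of all pairs, and more than 200 bp apart in 16 (17.02%), against 7.47% of all pairs. The median distance between summits was 16 bp, against 9 bp over all pairs. A cKO peak of at most 50% of the control width was found at 3 pairs, which lay inside Lef1, Tcf7 and Tcf7l1, where 2.45% of all pairs were so narrow. A control peak overlapped more than 1 cKO peak in 5 cases, at Lef1, Tcf7l1, Tcf7l2, Ctnnb1 and Axin2, where 1.29% of all control peaks did so. In the other direction 3 cKO peaks, at Tcf7l1, Ctnnb1 and Axin2, spanned more than 1 control peak, as did 1.45% of all cKO peaks.

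**Figure D5:**
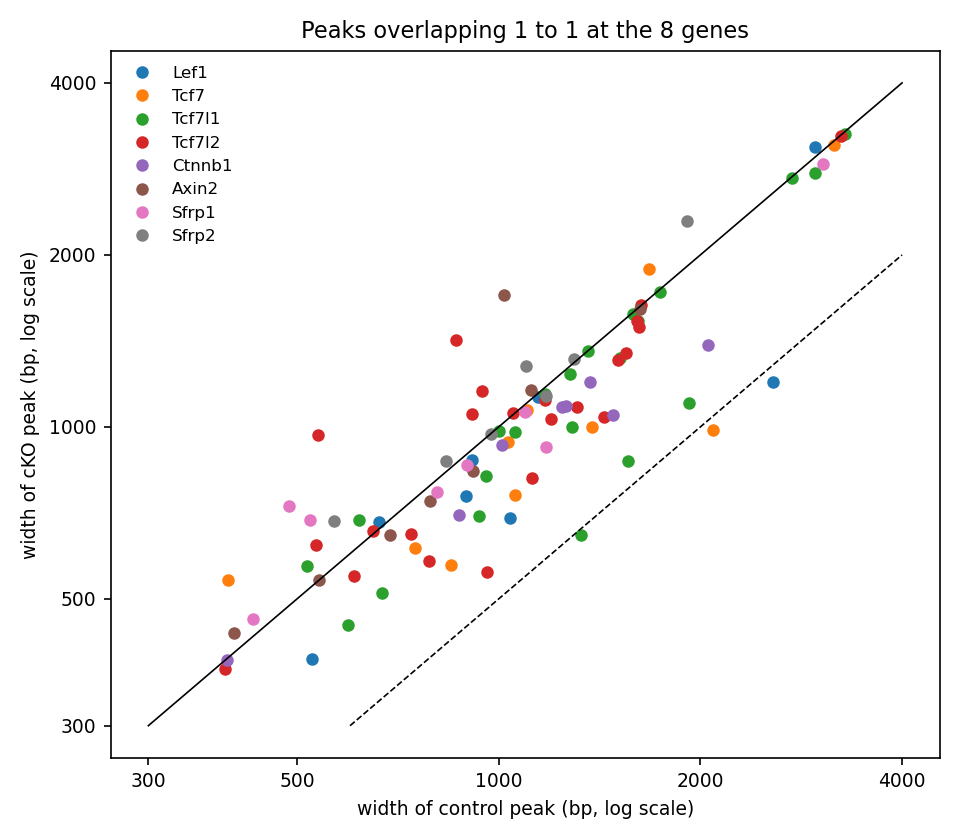
Width of the control peak (x) against the cKO peak (y), both in bp on log axes, for the 94 pairs of peaks overlapping 1 to 1, coloured by gene; the solid line marks equal widths and the dashed line a cKO peak of 50% of the control width. Points below the solid line, 68 of 94, are narrower in the cKO, and 5 of the 7 Sfrp2 points lie above it. Over all 54820 such pairs 58.1% were narrower.

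Other genes of the pathway were described from 4 lists, to be read beside 2 values over protein-coding genes. Those with a control peak had 74.6% of their control peaks found. Of those with a peak in either library, 43.5% had more unmatched control than unmatched cKO peaks. For the destruction complex and Dishevelled genes, which control how much beta-catenin persists, 48 of 61 control peaks were found (78.7%, 66.3 to 88.1%), and 3 of the 10 genes had more unmatched control than unmatched cKO peaks, 1 had fewer and 6 equal numbers. Csnk1a1, encoding casein kinase 1 alpha, had 10 of 15 found, the kinase gene Gsk3b 5 of 9, its relative Gsk3a 1 of 1 with 2 unmatched cKO peaks, and the scaffold gene Apc 6 of 7 with 1 unmatched cKO peak. For genes of nuclear partners of beta-catenin and TCF factors the count was 66 of 96 (68.8%, 58.5 to 77.8%), with 5 of 10 genes having more unmatched control peaks and 5 equal numbers. Among the corepressor genes of this list, Tle4 had 9 of 20 found and 10.4 kb covered against 17.2 kb, Tle3 24 of 34, Tle1 4 of 5 and Tle2 all 4.

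Genes of further secreted antagonists had 24 of 35 control peaks found (68.6%, 50.7 to 83.1%), with 5 of 8 genes having more unmatched control peaks, 1 fewer and 2 equal numbers. Dkk3 had 4 of 8 found, Dkk1, an inhibitor of the LRP coreceptors, 3 of 5 with 1 unmatched cKO peak, Dkk2 6 of 7 with 1, and Sfrp4 1 of 1 with 1. Feedback and common target genes had 52 of 65 found (80.0%, 68.2 to 88.9%), with 6 of 9 genes having more unmatched control peaks and 3 equal numbers. Of these, Znrf3, encoding a ubiquitin ligase that removes Wnt receptors, had 7 of 11 found, the stem cell receptor gene Lgr5 6 of 9, and Ccnd1 and Myc all of their 7 and 4. The median gene had 77.5% of its control peaks found among the 8 genes, and 100%, 84.4%, 70.0% and 66.7% in the 4 lists in the order given; over all 16703 protein-coding genes with a control peak, many of them with few peaks, it was 100%.

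Genes with counts most like those of Lef1 and Tcf7l2, the members with the most unmatched control peaks, were sought by the summed difference in control peaks, cKO peaks and control peaks found over the 2 libraries. Map2k5 had the same 3 counts as Lef1 (19, 10 and 9), followed at a difference of 1 by 8 genes, of which 1700025G04Rik and Cdh13 come first by symbol. Closest to Tcf7l2 were Ephb2 and Zbtb20, each at a difference of 1, and Ablim1 was the first by symbol of 6 genes at 2.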

How the data were processed

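ATAC-seq peaks of 1 control and 1 cKO library were compared. Per the submitters' processing notes, Trim Galore, SAMtools and Genrich were used on mm10; the aligner, versions and settings are not given in these sources. Each list, deposited by the authors, gives per peak a score (whole number, at most 1000), an area as signal, a -log10 p and a -log10 q (lowest values 1.42 for the control and 1.35 for the cKO). Score and area were not used, and the p only to rank peaks within a list. Coordinates are 1-based on mm10, and genes, starts and sequences came from RefSeq tables of GRCm38.p6, the assembly of mm10. Exons and introns were not analysed here. Shares have exact Clopper-Pearson intervals (scipy 1.17.1), and overlap and assignment were tested on simulated data. The rule named the 8 members, from each pathway list at most 2 genes with the highest and 2 with the lowest number of unmatched control minus unmatched cKO peaks, the genes with counts most like the top 2 members, and each member's most significant unmatched control peak, unmatched cKO peaks and widest peaks; other peaks named were chosen after their values were seen. Members, lists and rules were chosen with earlier results of these data known. One list of marker genes is not reported here. Alternatives were other overlaps, list lengths, thresholds, assignments and joined peaks.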

Additional observations from a re-analysis of the deposited data

How the results depend on the processing

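The count of control peaks found at the 8 genes rested most on how the lists were limited. With only as many of the strongest control peaks kept as there are cKO peaks, 82.7% were found (91 of 110; 83.5% of all control peaks), and 86.2% of cKO peaks were found in the control (94 of 109; 84.2% of all). In the more significant 50% of each list 60.7% of control peaks were found (37 of 61), an interval of 47.3 to 72.9% that does not reach the 75.4% of all control peaks under the same setting. There a control peak whose cKO counterpart ranks in the weaker 50% of the cKO list counts as not found. With overlap of 50% of both peaks required, 87.2% of cKO peaks were found (95 of 109; 88.4% of all). Under the other planned settings these shares stayed within the interval of the reported value, and the ratio of bases covered, which a change of the overlap rule cannot alter, ran from 0.688 to 0.902, beside 0.828 to 0.962 for all peaks. Of 72 values for single genes, 64 stayed within the interval of the reported share and 8 did not, the latter at Tcf7, Axin2, Tcf7l1 and Ctnnb1. With few peaks a gene these intervals are wide (24.4 to 71.1% at Lef1), so the tally says little of how stable the shares are. At Tcf7 and Axin2 a share of 100% falls outside because the upper limit was 99.8%. The remaining values were falls below the lower limit in the more significant 50% of each list, to 57.1% at Tcf7, 58.8% at Tcf7l1 and 42.9% at Ctnnb1. The share found at Lef1 ran from 42.1 to 64.3% and was the lowest of the 8 genes, in 1 setting level with Ctnnb1, except with lists of equal length, where Sfrp1 was lower (54.5%). No paired analysis was possible because each genotype has 1 library. Depth is unknown, so weak peaks missing from the cKO list cannot be told apart from a shallower or noisier library.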
